A study of Mus musculus with 10 samples.

Results

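The H3K27me3 peaks of the R4000 line were compared with those of the R1000 line, the last step of a mafosfamide dose escalation. Both lines were derived from 1 parental mouse B-cell lymphoma line on the C57BL/6J background, which carries an Eµ-Myc transgene and is Cdkn2a-/-, so all lines share both alterations. Mafosfamide is an alkylating agent, the form of cyclophosphamide that is active in culture. R1000 was grown to 1000 nM of the drug and harvested at day 23, and R4000 to 4000 nM and harvested at day 37 by the study's account, although the series text gives 34 days of escalation, so dose and time cannot be told apart. Both are resistant sub-clones of 1 line, and chromatin was taken from cells grown without the drug. The parental line and the R100 and R500 lines (100 and 500 nM, days 10 and 18) are used below only as a reference for the regions that differ. Each line has 1 peak list, which holds positions in mm9 and no height, count or p-value. The lists have no replicates, so the lines could not be tested against each other. The study's methods give a p limit per bin for its promoter clusters, but the depth of each list, and whether that limit also made its peaks, are not given in the sources used here, so fewer peaks and less H3K27me3 cannot be told apart.

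H3K27me3 is a trimethyl mark on histone H3 that is placed by Ezh1 and Ezh2, the catalytic subunits of Polycomb repressive complex 2 (PRC2), and removed by the demethylases Kdm6a and Kdm6b. It lies over the promoters of silent genes, above all those of developmental transcription factors, in CpG-rich DNA. In B cells PRC2 acts during the germinal centre reaction and early differentiation, and Ezh2 is often altered in lymphoma.

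Members were the distinct peaks of both lists, joined into regions wherever they overlapped by at least 1 bp. The R1000 list held 9595 peaks over 1.61 Mb and the R4000 list 6820 peaks over 1.07 Mb. Joined, they made 13299 regions, against 44247 regions for all 5 lists. Of these, 6826 regions (51.3%) had a peak in R1000 only and are called lost, 3907 (29.4%) had a peak in R4000 only and are called new, and 2566 (19.3%) had a peak in both and are called kept. The lists differ in length, and with R1000 reduced to its 6820 widest peaks the counts were 4304 lost, 4132 new and 2341 kept. This cut took out the narrowest R1000 peaks and none of R4000. Fewer lost and no fewer new regions thus follow from the cut itself.

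The central 150 bases of 6 regions are shown as examples of the 3 classes, with each CpG in capitals, read from the plus strand of mm9. Those at Ebf3 and Hoxb9 are from the widest and the fourth-widest lost regions. Those beside Dlx1as and in Kcnk4 are from the widest and second-widest new regions, that in Rpl34 is from the widest new region within 2 kb of the transcription start site (TSS) of a ribosomal protein gene, and that at Atf3 is from the fifth-most covered kept region. None of these windows holds an exonic base.
Ebf3, lost, chr7:144503176-144503325: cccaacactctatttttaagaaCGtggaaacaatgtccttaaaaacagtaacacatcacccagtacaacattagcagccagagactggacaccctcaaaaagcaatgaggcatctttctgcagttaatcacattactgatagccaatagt
Hoxb9, lost, chr11:96130826-96130975: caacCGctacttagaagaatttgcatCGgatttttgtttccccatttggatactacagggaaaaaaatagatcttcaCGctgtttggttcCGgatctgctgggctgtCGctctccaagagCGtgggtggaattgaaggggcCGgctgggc
Dlx1as, new, chr2:71376001-71376150: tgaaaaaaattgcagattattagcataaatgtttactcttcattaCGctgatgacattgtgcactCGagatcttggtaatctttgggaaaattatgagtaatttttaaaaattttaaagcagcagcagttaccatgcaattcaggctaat
Kcnk4, new, chr19:7008451-7008600: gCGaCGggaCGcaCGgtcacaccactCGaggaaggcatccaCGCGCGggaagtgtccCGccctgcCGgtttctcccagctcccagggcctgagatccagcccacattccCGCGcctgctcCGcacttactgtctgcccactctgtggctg
Rpl34, new, chr3:130432551-130432700: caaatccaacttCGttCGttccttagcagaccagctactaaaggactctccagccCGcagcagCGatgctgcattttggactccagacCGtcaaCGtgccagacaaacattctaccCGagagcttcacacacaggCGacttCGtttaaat
Atf3, kept, chr1:193009101-193009250: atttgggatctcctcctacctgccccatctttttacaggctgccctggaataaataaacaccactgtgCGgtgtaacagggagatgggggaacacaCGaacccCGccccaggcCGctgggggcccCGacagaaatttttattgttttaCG
The number of CpGs was 1 at Ebf3, 7 at Hoxb9, 2 beside Dlx1as, 13 in Kcnk4, 9 in Rpl34 and 6 at Atf3. Over all regions of a class, the median number of CpGs in the central 150 bases was 6 in kept regions (quartiles 3 and 10), 3 in lost regions (1 and 6) and 4 in new regions (2 and 8). The ranges between quartiles of the 3 classes overlap.

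Most of the peaks without an overlap in the other line were narrow. Of the R1000 peaks, 2358 of 9595 overlapped an R4000 peak (24.6%, 95% Wilson interval 23.7 to 25.4%, which covers counting of peaks only). Of the R4000 peaks, 4317 of 6820 overlapped no R1000 peak (63.3%, 62.1 to 64.4%). Both lists had a median peak width of 100 bp. Of the 3251 R1000 peaks of 50 bp, the smallest width, 5.44% overlapped an R4000 peak, whereas 448 of 510 peaks of 500 to 950 bp did (87.8%, 84.7 to 90.4%). All 115 R1000 peaks of at least 1000 bp overlapped an R4000 peak. In the other direction, 13.4% of the 2396 R4000 peaks of 50 bp overlapped an R1000 peak, against 274 of 279 peaks of 500 to 950 bp (98.2%, 95.9 to 99.2%) and all 74 of at least 1000 bp. No peak of at least 1000 bp in either line was therefore without a peak in the other.

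**Figure D1:**
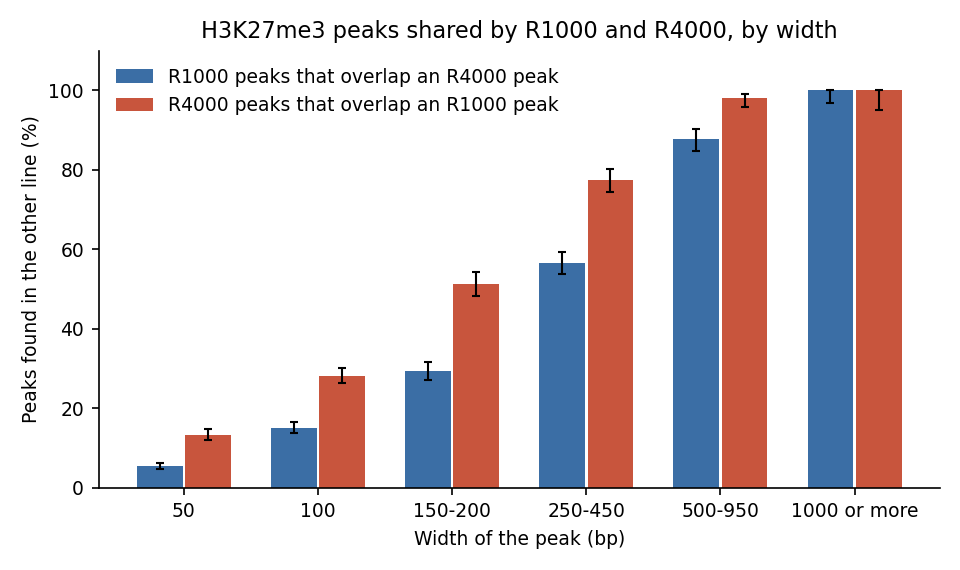
Share of H3K27me3 peaks (y axis, %) that overlap a peak of the other line by at least 1 bp, by the peak's width (x axis, bp). Blue bars are R1000 peaks and red bars R4000 peaks, and error bars are 95% Wilson intervals. The share rises from 5.44% and 13.4% at 50 bp to 100% at 1000 bp or more.

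Many peaks without an overlap had a neighbour in the other list. An R4000 peak lay within 500 bp of 45.7% of the R1000 peaks and within 5000 bp of 67.5%. No R1000 peak lay within 500 bp of 38.9% of the R4000 peaks, or within 5000 bp of 23.8%. By bases, 0.487 Mb was covered in both lists, which is 30.2% of the R1000 bases and 45.3% of the R4000 bases.

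The regions kept in both lines were on balance shorter in R4000. Of the 2566 kept regions, 1366 (53.2%) had fewer covered bases in R4000, 411 (16.0%) had the same number and 789 (30.7%) had more. The median difference, R4000 minus R1000, was -50 bp, which is 1 step of the 50 bp grid of the lists. Summed over the kept regions, covered length was 880 kb in R1000 and 711 kb in R4000, 0.808 of the former. Of the 590 kept regions with at least 500 bp in R1000, 79.2% had fewer bases in R4000, with a median difference of -250 bp. Of the 378 with at least 500 bp in R4000, 42.1% had fewer there and 49.5% had more. The result for wide regions thus depends on which line sets the width. In 814 kept regions (31.7%) an R1000 peak covered the whole region and R4000 covered less, and in 449 (17.5%) this was the other way round. In 1157 (45.1%) neither line covered the whole region. A single R1000 peak corresponded to several R4000 peaks in 233 regions, and the reverse held in 116.

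**Figure D2:**
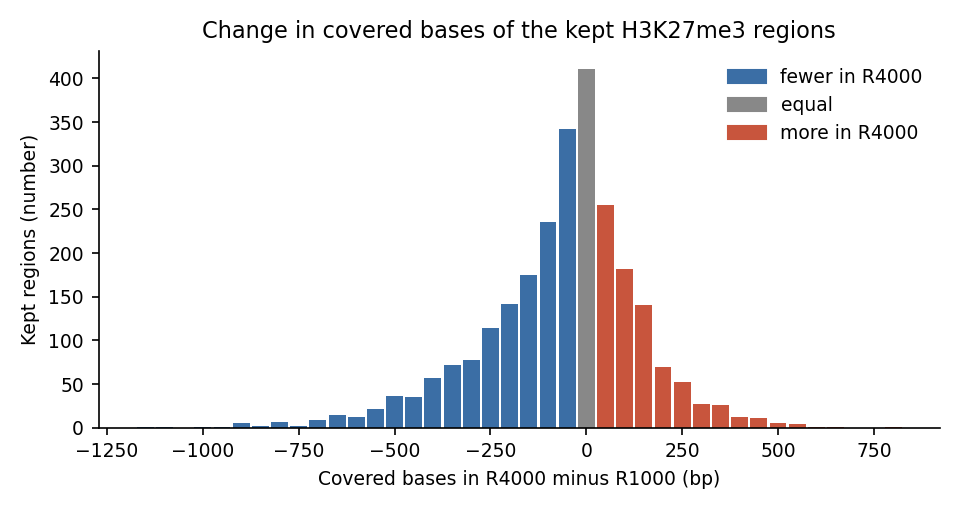
Number of kept H3K27me3 regions (y axis) by the difference in covered bases, R4000 minus R1000 (x axis, bp, steps of 50 bp). Blue bars are regions with fewer bases in R4000 (1366), grey is no difference (411) and red bars are regions with more (789). The distribution reaches further to the left (-1150 bp) than to the right (800 bp).

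The widest regions present in R1000 alone lay at genes for developmental regulators and at genes of other kinds. The widest, chr7:144502851-144503650, lies in an intron of Ebf3, a paralogue of the B-cell factor Ebf1. From the parental line to R4000, in order of dose, it was covered over 0, 400, 450, 800 and 0 bp. The next, chr6:72186351-72187100, lies 780 bp from the TSS of Atoh8, which encodes a bHLH transcription factor. Here coverage was 400, 500, 250, 750 and 0 bp in the same order. A lost region is by definition covered in full in R1000 and not at all in R4000. Within 2 kb of the Atoh8 TSS, coverage was 1300, 2880, 2300, 1930 and 1130 bp in the same order. R1000 was thus not the longest there, and R4000 still had peaks.

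The other 3 of the 5 widest lost regions were each 700 bp long and were covered in all lines but R4000. At the TSS of Unc13b, a factor for vesicle release (chr4:43071351-43072050, 226 exonic bp), coverage was 150, 600, 700, 700 and 0 bp from the parental line to R4000. Between the Hoxb genes, 1521 bp from the TSS of Hoxb9 (chr11:96130551-96131250, no exonic base), coverage was 350, 500, 400, 700 and 0 bp. In Efr3b (chr12:4037651-4038350, intronic, 565 bp from the TSS), it was 200, 700, 550, 700 and 0 bp. At each of these the peak had been in the lists since the parental line, and R4000 was the only list without it.

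The widest regions present in R4000 and not in R1000 were also covered in earlier lines. The widest, chr2:71375701-71376450, lies at the Dlx1-Dlx2 locus, which encodes a pair of homeodomain factors of the forebrain, and overlaps an exon of the non-coding RNA Dlx1as (248 exonic bp). Coverage from the parental line to R4000 was 300, 250, 250, 0 and 750 bp. In Kcnk4, a potassium channel gene (chr19:7008201-7008850, 13 exonic bp, 155 bp from the TSS), coverage was 200, 650, 650, 0 and 650 bp. In Isl2, a LIM homeobox gene of motor neurons (chr9:55388701-55389300, 191 exonic bp), it was 600, 350, 350, 0 and 600 bp. Within 2 kb of the Isl2 TSS, by contrast, coverage was 850, 1701, 1729, 1200 and 650 bp, so R4000 had less than R1000 there.

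The remaining pair of wide new regions lay 165 bp from the TSS of Atp1b1, a subunit of the sodium pump (chr1:166388651-166389150), and 35416 bp from the nearest protein-coding TSS, that of Dcaf4 (chr12:84825501-84826000). The region at Atp1b1 was covered over 0, 0, 250, 0 and 500 bp from the parental line to R4000. That near Dcaf4 was covered over 350, 500, 150, 0 and 500 bp. All 5 of the widest new regions had therefore been covered in R500, and 4 of 5 in the parental line, while R1000 had no peak there.

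The kept regions with the most covered bases were ranked by the sum over both lines, so long coverage in R4000 was part of the choice. The most covered, 6000 bp on chromosome 17 (39979851 to 39985850) over the annotated pseudogene AY036118, was covered over 5950 bp in both lines and over 1750 bp in the parental line. At Sp9, a zinc finger factor of limb and forebrain (chr2:73108251-73111900), coverage was 2750, 3650, 3650, 3650 and 3100 bp from the parental line to R4000. At Osr2, a zinc finger factor of palate and limb (chr15:35223401-35227000), it was 2850, 3350, 3350, 3500 and 3050 bp. Over Hoxa10 and up to 613 bp from the TSS of Hoxa9 (chr6:52181701-52185550), it was 2700, 3800, 3850, 3450 and 2800 bp. Near Atf3, a stress-induced bZIP factor (chr1:193007401-193010950), it was 3300, 3550, 3550, 2950 and 3250 bp. R4000 thus covered fewer bases than R1000 at 3 of these 5 loci, more at Atf3 and the same number on chromosome 17.

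The kept regions picked for the largest falls in covered bases were 1050 to 3200 bp wide. Near Sall3, a spalt-type zinc finger factor on chromosome 18, 1134 bp from its TSS, R1000 covered 1200 bp and R4000 50 bp. Over Gm1337, a predicted gene (chr2:118527451-118530650), they covered 3050 and 1950 bp. In Esrp1, an epithelial splicing factor (chr4:11311251-11312500), it was 1250 and 250 bp, and in Rab30, a small GTPase of the Golgi (chr7:99890651-99891700), 1050 and 100 bp. Over Hoxa7 (chr6:52165801-52169000), it was 3150 and 2250 bp.

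The largest rises were smaller than the largest falls. Over Wnt6, which encodes a secreted ligand, a wholly exonic region (chr1:74830801-74831650) had 50 bp covered in R1000 but 850 bp in R4000, after 400, 600 and 750 bp in the parental, R100 and R500 lists. Coverage near the Wnt6 TSS went the other way, with 1150 bp in R1000 and 600 bp in R4000 within 2 kb. In the 5 kb upstream of it, these were 350 and 100 bp. Near Insm1, a zinc finger factor of neuroendocrine cells (chr2:146046101-146047300), coverage was 550 bp in R1000 against 1200 bp in R4000. In Cacna1g, a calcium channel gene (chr11:94333901-94334650), it was 150 and 750 bp. At the TSS of Rassf5, a Ras effector of lymphocytes (chr1:133141001-133142450), it was 900 and 1450 bp. At Nkx1-2, a homeobox gene that lies within Fgfr2 in the annotation (chr7:139789001-139789700), it was 150 and 700 bp.

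To place the regions at genes, a protein-coding gene was counted as covered where peaks took at least 150 bp (3 steps of the grid) of a window at its TSS, out of 22225 genes. In the 5 kb upstream of the TSS, 874 genes were covered in R1000 and 609 in R4000. Of all genes, 457 were kept (2.06%), 417 were lost (1.88%) and 152 were new (0.684%). The lost genes were 47.7% of those covered in R1000 and the new genes 25.0% of those covered in R4000. Within 2 kb of the TSS, upstream or downstream, 1539 genes were covered in R1000 and 1225 in R4000, with 913 kept (4.11%), 626 lost (2.82%) and 312 new (1.40%). Here the lost genes were 40.7% of the genes covered in R1000, and the new genes 25.5% of those covered in R4000. A call of lost did not always mean that no peak was left, since 285 of the 626 lost genes still had fewer than 150 covered bp in R4000 and 341 had none.

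The genes with the longest lost coverage within 2 kb of the TSS were Rab34, Mfsd2a, Rab30, Sim1 and Fhdc1. At Rab34, a small GTPase needed for cilia, coverage from the parental line to R4000 was 1450, 2032, 2382, 1400 and 100 bp. At Mfsd2a, a lipid transporter, it was 600, 1581, 1520, 1250 and 100 bp in the same order. Sim1, a bHLH-PAS factor of the hypothalamus, had 994, 2501, 2551, 1107 and 100 bp. At these 3 genes coverage in R4000 was below that of every other line, the parental line included. Rab30 had 1250 bp in R1000 against 100 bp in R4000, and Fhdc1, a formin-family gene, had 1050 and 50 bp.

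In the 5 kb upstream window, genes with the longest lost coverage included Sall3, Proca1, Hoxd10 and Rhpn2. At Sall3 it was 900, 1900, 2250, 1700 and 50 bp from the parental line to R4000. Proca1, which lies next to Rab34 on chromosome 11, had 1400 bp in R1000 against 100 bp in R4000. Hoxd10 and Rhpn2 had 900 and 850 bp upstream in R1000, and both had 100 bp in R4000.

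Genes with the longest new coverage within 2 kb of the TSS included Heyl, Ncs1, Ran and Fscn1. At Heyl, a Notch-responsive bHLH repressor, coverage from the parental line to R4000 was 500, 1250, 1150, 0 and 900 bp. Ran, the GTPase of nuclear transport, had 0, 300, 550, 100 and 600 bp, and R4000 was its longest coverage in any line. At Ncs1, a neuronal calcium sensor, coverage was 100, 1750, 1050, 100 and 700 bp. Fscn1, an actin-bundling protein, had 100 bp in R1000 against 500 bp in R4000. Upstream of the TSS, the genes were Duoxa2 (50 and 600 bp in R1000 and R4000), Foxf1a (0 and 600 bp), Neu2 (100 and 563 bp), Kif26b (100 and 550 bp) and Ncs1 (100 and 550 bp). Foxf1a, a forkhead factor of mesoderm, had 1550 bp upstream in R100 and 850 bp in R500.

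Around the TSS, peaks of both lines lay mostly downstream. For protein-coding genes at large, coverage was most frequent 525 bp downstream in R1000 (2.19%) and 325 bp downstream in R4000 (1.80%). The 189 developmental factor genes, 13 lists of homeobox, Sox, T-box, bHLH, Pax and forkhead families joined, were covered broadly on both sides. Their highest share was 14.8% in R1000 and 11.1% in R4000. Coverage of the 83 genes for cytoplasmic ribosomal proteins was highest at 625 bp downstream in R1000 (27.7%) and at 675 bp in R4000 (32.5%). R1000 also had a lesser maximum of 20.5% at 375 bp, with 16.9% at 475 bp. Between 100 bp upstream and 50 bp downstream of the TSS, no ribosomal protein gene was covered in either line.

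**Figure D3:**
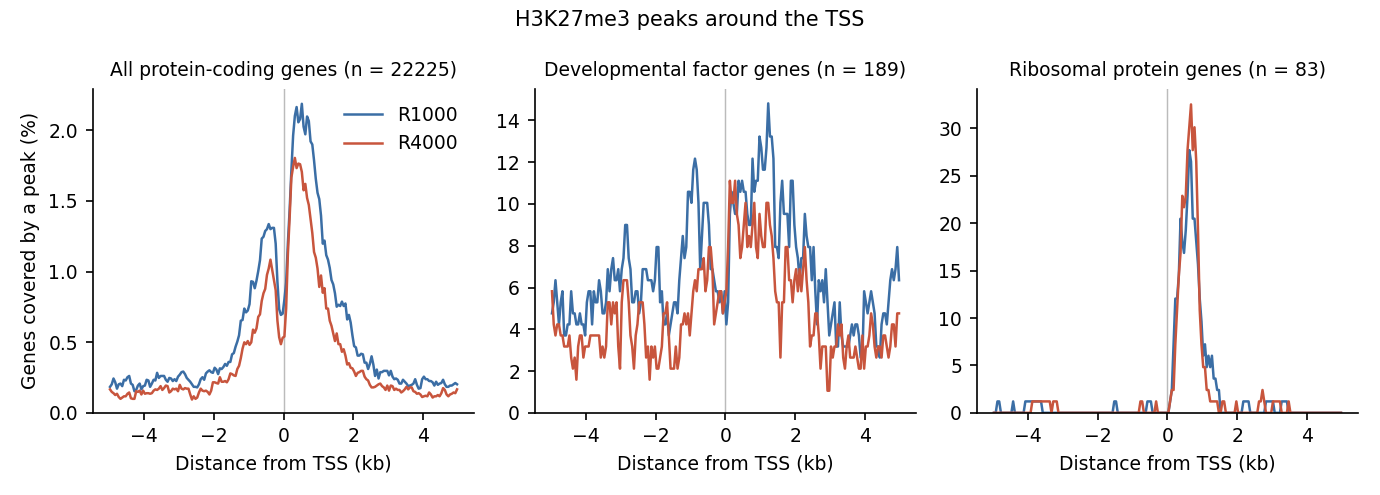
Share of genes covered by an H3K27me3 peak (y axis, %) in steps of 50 bp by distance from the TSS (x axis, kb, positive downstream) in R1000 (blue) and R4000 (red), for 22225 protein-coding genes, 189 developmental factor genes and 83 ribosomal protein genes; the y axes differ. The R4000 line is lower than R1000 over most of the first panel, and higher at its maximum in the ribosomal panel (32.5% against 27.7%).

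Genes for developmental transcription factors, the classical targets of PRC2, were covered far more often than other genes in both lines, and few were new in R4000. Within 2 kb of the TSS, 75 of the 189 were covered in R1000 and 57 in R4000 (39.7% and 30.2%, beside 6.92% and 5.51% of all protein-coding genes), with 53 kept, 22 lost and 4 new. The lost genes were 29.3% of those covered in R1000 (20.2 to 40.4%), beside 40.7% over all genes. The new genes were 7.02% of those covered in R4000 (2.76 to 16.7%), beside 25.5% over all genes. The summed coverage was 66424 bp in R1000 against 47865 bp in R4000, a ratio of 0.721, beside 0.718 over all genes. More covered bases in R4000 were found at 29 of these 189 genes and fewer at 68. Of all 22225 genes, 1338 had more (6.02%) and 2158 had fewer (9.71%). The windows of neighbouring genes in a cluster overlap, so 1 peak can count at more than 1 gene.

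The 4 Hox clusters, which pattern the body axis and in blood mark immature cells, differed in how much they held. Over the Hoxa cluster with 5 kb on either side (chr6:52100366-52215874), coverage from the parental line to R4000 was 35524, 48124, 48409, 32324 and 25874 bp. R4000 thus had 0.800 of the R1000 coverage there, in 73 peaks against 71. The R1000 and R4000 coverage was 6600 and 4150 bp over Hoxb (0.629), and 15900 and 10900 bp over Hoxc (0.686). Over Hoxd (chr2:74501367-74608200), coverage was 1000, 8934, 9300, 2100 and 400 bp from the parental line to R4000, a ratio of 0.190, and 4 peaks were left of 16. In all 4 clusters R4000 had the least coverage of the 5 lines. Over the whole genome the R4000 list covered 0.666 of the bases of the R1000 list, and it was the shortest of the 5 lists.

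At single Hox genes, coverage within 2 kb of the TSS was mostly lower in R4000. At Hoxa9, coverage was 2701, 2801, 2901, 2651 and 1701 bp from the parental line to R4000. Hoxa13 had 2551 bp in R1000 against 1927 bp in R4000. Hoxd10 had 250, 1250, 1704, 700 and 0 bp, and Hoxd11 had 50, 1200, 600, 450 and 0 bp. Hoxb2 had 796 bp in R1000 against 96 bp in R4000, whereas Hoxb8 had 582 and 750 bp. No Hox gene was new within 2 kb of the TSS. In the 5 kb upstream Hoxd13 alone was new, with 100 bp in R1000 against 200 bp in R4000.

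The other developmental families named here differed in the number of genes lost, but the numbers were small. Within 2 kb of the TSS, the lost share of genes covered in R1000 had wide Wilson intervals. These were 23.1 to 88.2% for Sox, 16.8 to 68.7% for proneural bHLH, 7.57 to 47.6% for forkhead and 0 to 43.4% for LIM homeobox genes. Each includes the 40.7% lost over all genes. The intervals for Hoxa, Hoxb and Hoxc genes also include it, whereas that for Hoxd genes does not (3 of 3 lost, 43.9 to 100%). These intervals cover counting of genes in 1 list per line, so they are no test of a family. Of 18 Sox genes, which encode HMG-box factors, 5 were covered in R1000 and 2 in R4000, with a summed coverage of 2700 and 1000 bp. Sox4, a factor needed for B-cell precursors, had 0, 719, 1219, 800 and 0 bp from the parental line to R4000, and Sox12 had 200, 1200, 1250, 600 and 100 bp. Sox21 differed in the other direction, with 250 bp in R1000 against 600 bp in R4000. Of 17 proneural bHLH genes, 6 were kept and 4 were lost, with Neurog1 at 450, 1400, 1527, 400 and 0 bp. Of 42 forkhead genes, 11 were kept and 3 lost, and Foxa1 had 1000 bp in R1000 against 250 bp in R4000. All 5 LIM homeobox genes covered in R1000 were kept, but their summed coverage was 7330 bp in R1000 against 4173 bp in R4000, and Lhx4 had 1800 and 550 bp.

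Of the 13 developmental lists, T-box genes alone had more summed coverage within 2 kb of the TSS in R4000, at 1800 bp in R1000 against 2150 bp in R4000 over 17 genes, and this turned in the 5 kb upstream, at 1850 against 1700 bp. Within 1 kb of the TSS, Hoxb genes (ratio 1.12) and Pax genes (1.65) also had more in R4000. Eomes, a T-box factor of effector T cells, had 350 and 650 bp, and Tbx1, a factor of the pharyngeal arches, had 150, 1551, 1363, 0 and 300 bp from the parental line to R4000. Tbx2 had 850 bp in R1000 against 550 bp in R4000. The 4 new developmental factor genes were Tbx1, Six2, Six4 and Nkx2-6, with 300, 200, 150 and 300 bp in R4000.

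Ribosomal protein genes, which are highly expressed in growing cells, unlike most lists, had about as much coverage in R4000 as in R1000. Within 2 kb of the TSS, 37 of the 83 were covered in R1000 and 42 in R4000, with 27 kept, 10 lost and 15 new. The new genes were 35.7% of those covered in R4000 (23 to 50.8%, beside 25.5% over all genes), and the lost genes were 27% of those covered in R1000 (15.4 to 43.0%, beside 40.7%). Both intervals include the share over all genes. Summed coverage was 14550 bp in R1000 against 15027 bp in R4000, a ratio of 1.03, beside 0.718 over all genes. More covered bases in R4000 were found at 33 of the 83 genes and fewer at 29. In the parental line 9 of them were covered, against 59 in R100 and 56 in R500. The list was chosen with earlier results on these genes in these data known.

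The ratio of summed coverage, R4000 over R1000, was 1.19 for the small subunit and 0.954 for the large subunit within 2 kb of the TSS, and 1.27 and 1.05 within 1 kb. For the 32 small-subunit genes, summed coverage was 4850 bp in R1000 against 5777 bp in R4000, with 10 genes kept, 5 lost and 8 new. Rps18 had 100, 750, 500, 100 and 350 bp from the parental line to R4000. Rps9 was lost, with 400 bp in R1000 against 100 bp in R4000. For the 51 large-subunit genes, summed coverage was 9700 and 9250 bp, with 17 kept, 5 lost and 7 new. Rpl8 had 300 bp in R1000 against 750 bp in R4000, Rpl27a had 250 and 650 bp, and Rpl31 had 850 and 300 bp. Of the covered bases near ribosomal protein genes, 44.3% were exonic in R1000 and 44.5% in R4000. Many processed copies of these genes lie elsewhere in the mouse genome, and how reads with several matches were placed is not given in the sources used here, so values at their exons are uncertain.

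For the 77 mitochondrial ribosomal protein genes summed coverage was 1250 bp in R1000 against 850 bp in R4000, with 1 gene kept, 1 lost and 1 new. The 66 translation factor genes had 3500 bp in both lines, with 5 kept, 4 lost and 1 new, the last being Eif4e3 with 50 and 350 bp.

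The summed coverage of signalling genes in R4000 was 0.660 of that in R1000 for the Notch pathway, 0.656 for Wnt genes and 0.836 for immediate early genes, beside 0.718 over all genes. Of 18 Notch pathway genes, 8 were kept, 1 lost and 1 new, with a summed coverage of 8512 bp in R1000 against 5620 bp in R4000. The Notch effectors Hey1 (1862 and 900 bp) and Hey2 (1200 and 350 bp) and the ligand Dll1 (1950 and 1200 bp) had less in R4000, whereas Heyl was the new gene. Of 39 Wnt genes, 10 were kept, 3 lost and 1 new within 2 kb of the TSS, with 8538 and 5600 bp in all. Wnt3 had 800 bp in R1000 against 100 bp in R4000. In the 5 kb upstream, by contrast, 1 Wnt gene was kept, 5 were lost and 4 were new. The lost were 83.3% of the 6 covered there in R1000 (43.6 to 97.0%), beside 47.7% over all genes. The new were 80.0% of the 5 covered in R4000 (37.6 to 96.4%), beside 25.0% over all genes. Of 17 immediate early genes, 7 were kept, 2 lost and 2 new, with 10307 and 8618 bp in all. Among these Egr2 had 1600 bp in R1000 against 1000 bp in R4000, and Fos had 750 and 1111 bp.

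**Figure D4:**
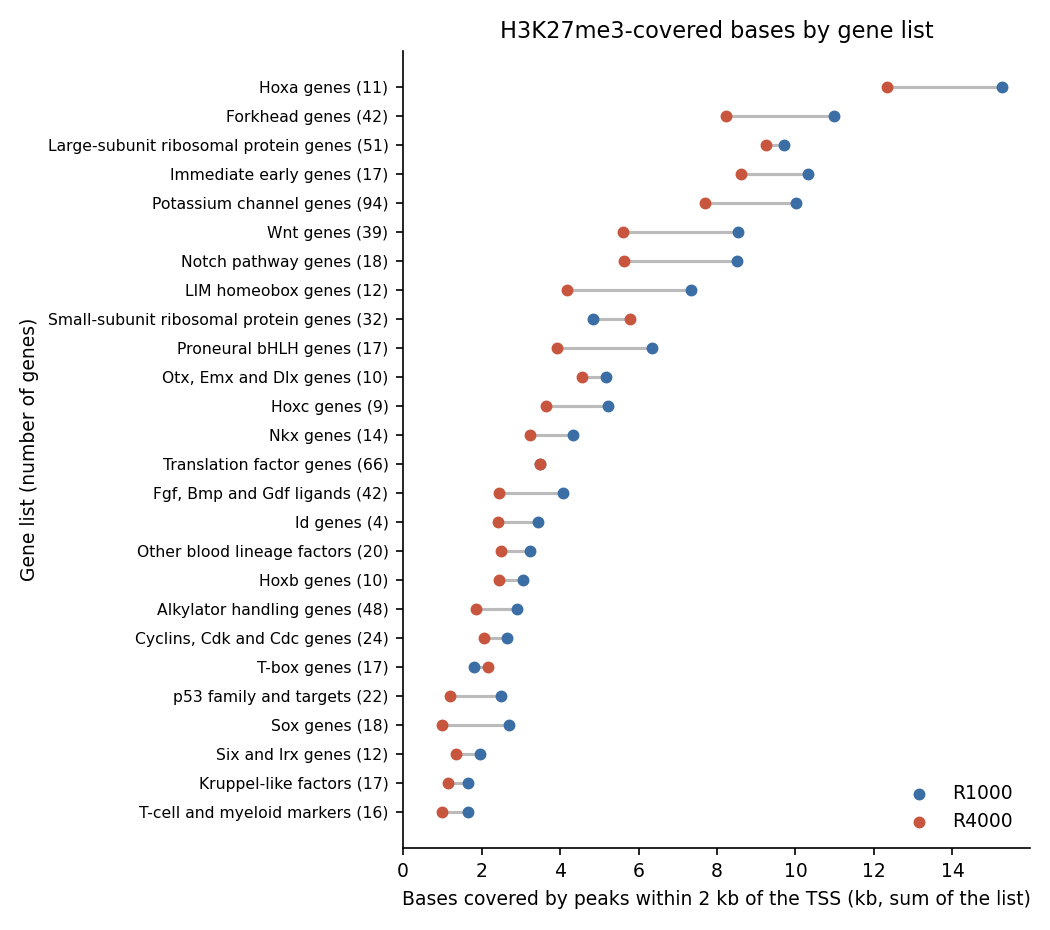
Bases covered by H3K27me3 peaks within 2 kb of the TSS, summed over the genes of a list (x axis, kb), in R1000 (blue) and R4000 (red), for the 26 lists with the most covered bases over both lines. The number of genes in a list is given beside its name. Small-subunit ribosomal protein genes and T-box genes are higher in R4000 (the latter are lower there in the 5 kb upstream), the points of translation factor genes coincide at 3500 bp, and the other lists drawn are higher in R1000.

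Genes of the B-cell lineage were checked because the lines are labelled as B-cell lymphoma. Of 13 B-cell identity markers, 2 were covered within 2 kb of the TSS in each line (15.4%, beside 6.92% of all genes in R1000 and 5.51% in R4000). Cd79b, a subunit of the B-cell receptor, had 150 bp in R1000 and none in R4000, and Ptprc, the phosphatase CD45, had none in R1000 and 150 bp in R4000. Of 16 T-cell and myeloid markers, only Cd14, a monocyte receptor, was covered, with 1661 bp in R1000 against 1000 bp in R4000. Cdkn2a, the gene deleted in these cells, had no covered base in any of the 5 lists in either window. Of 22 B-cell transcription factors, 2 were kept, 1 was lost and 1 was new, so 13.6% were covered in each line. Bcl6, a repressor of the germinal centre, had 600 bp in R1000 against 450 bp in R4000, Bcl11a, a factor of early B cells, had 100 and 300 bp, and Pou2af1, a coactivator of octamer factors, had 150 and 0 bp. Of the 4 Id genes, whose products inhibit E proteins such as E2a, Id1 and Id2 were kept. Id1 had 2850, 2937, 3137, 2837 and 2100 bp from the parental line to R4000, and Id2 had 407, 707, 707, 607 and 307 bp. In the 5 kb upstream, Id2 had more in R4000 (1557 bp in R1000 against 2007 bp), and Id1 had less (836 and 636 bp).

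The classes did not use the earlier lines, but they differ in width, with a median of 300 bp in kept and 100 bp in lost and new regions. Of the kept regions, 65.8% had a parental peak, 89.7% an R100 peak and 90.2% an R500 peak. Of the lost regions, 17.3% had a parental peak (16.4 to 18.2%), 41.0% an R100 peak and 39.5% an R500 peak. Of the new regions, 12.5% had a parental peak (11.5 to 13.6%), 39.4% an R100 peak and 36.9% an R500 peak. The intervals of the lost and new regions do not overlap for the parental line, and they overlap for R100. No earlier line had a peak at 44.9% of the lost regions, 47.3% of the new regions and 3.86% of the kept regions. Over all regions, a peak in R500 and none in the parental list was found at 1082 of the new (27.7%), 26.8% of the lost and 26.9% of the kept. Among regions of at least 200 bp these shares differed, at 47.1% of the new, 39.8% of the lost and 21.8% of the kept.

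Among regions of at least 200 bp, parental, R100 and R500 peaks were found at 75.5%, 95.1% and 95.7% of the 1991 kept regions. Of 905 such lost regions, 79.9% had an R100 peak and 81.3% an R500 peak, and of 327 such new regions, 78.3% and 76.8% did. Parental peaks were found at 46.4% of the lost (43.2 to 49.7%) and 32.7% of the new regions (27.9 to 38.0%). All 3 earlier lists had a peak at 340 of the lost and 86 of the new regions of this width. At the level of genes, 19.2% of the 312 genes new within 2 kb of the TSS had been covered in no earlier line, against 7.67% of the 626 lost genes.

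**Figure D5:**
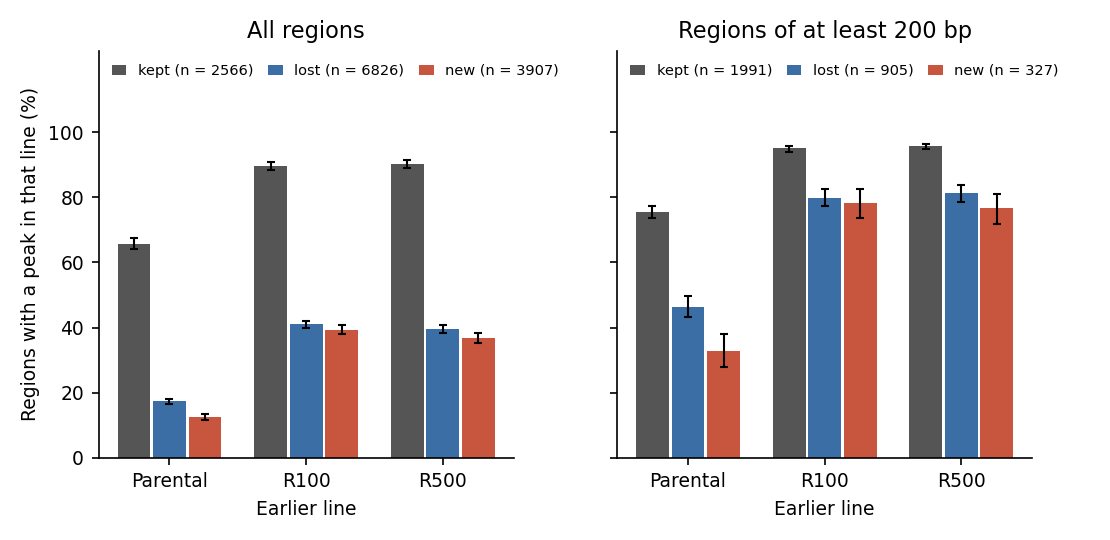
Share of kept (grey), lost (blue) and new (red) regions with an H3K27me3 peak in the parental, R100 and R500 lists (y axis, %; x axis, line), for all regions on the left and for those of at least 200 bp on the right. Error bars are 95% Wilson intervals. Lost and new regions stand close together in R100 (41.0% and 39.4% of all regions), and kept regions stand above both.

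The classes also differed in base composition and position. In the 500 bp around the centre, the median GC content was 55.2% in kept, 50% in lost and 51.8% in new regions, and the median ratio of observed to expected CpG was 0.581, 0.344 and 0.423. New regions were also the higher of the unshared classes when widths were held alike: for example, among regions of 150 to 450 bp the ratio was 0.541 in new and 0.435 in lost regions, and 0.566 in kept regions. Within 1 kb of a protein-coding TSS lay 48.1% of the kept regions (46.1 to 50%), 30.1% of the lost (29.0 to 31.2%) and 37.8% of the new (36.2 to 39.3%). Exons were overlapped by 40.5% of kept, 19.7% of lost and 23.2% of new regions. For each lost region there were 0.717 new ones within 1 kb of a TSS, and between 0.504 and 0.516 in each range further away. Both unshared classes took a larger share away from genes: lost regions were 62.5% of the R1000 regions within 1 kb of a TSS and 83.7% of those more than 50 kb away, and new regions were 54.5% and 72.2% of the R4000 regions.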

How the data were processed

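H3K27me3 ChIP-seq of 5 lines was used, and the RRBS samples were not analysed here. The authors precipitated chromatin with an anti-H3K27me3 antibody, sequenced 50-bp reads on a HiSeq 2000 and called peaks against input by Poisson statistics. The submitters' processing notes name Bowtie and mm9. The values the authors deposited are positions only, with no count or score, and whether replicates were pooled is not given in the sources used here. Peaks that a list repeats (R100 and R500) were counted once.

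Overlaps, regions and covered bases came from scripts in Python 3.11.15 (pandas 2.3.3, numpy 2.4.6), and the step was tested on simulated data, where 0 of 1638 intervals differed from a base-by-base count. Sequence was read with pysam 0.24.0 from NCBIM37 (mm9), genes were taken from its GENCODE annotation with 1 entry per symbol and chromosome, and figures were drawn with matplotlib 3.10.9. The members, the 39 gene lists and the tests were chosen with earlier results of these data known. Named regions are the 5 widest lost and new, the 5 most covered kept, and the 5 kept with the largest fall and rise. Named genes are the 5 lost and new with the most covered bases in each window, and up to 4 genes per list with the largest difference. Lost and new developmental genes are named outside this rule. A few genes that the rule names are not reported here. Depth is unknown, no test between lines was made, and Wilson intervals cover counting only.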

Additional observations from a re-analysis of the deposited data

How the results depend on the processing

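With 1 list a side no replicate could be left out, and no paired analysis was possible because no result comes from a test. Of 80 alternative values, 39 stayed within the Wilson interval of the reported share or within 1.5 times the reported count and 41 did not. The depth and the peak threshold of the lists are not given in the sources used here, and their part in these counts was not tested.

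The share of R1000 peaks kept, reported as 24.6%, was 30.6% with peaks of at least 100 bp and 37% with peaks of at least 500 bp. It was 27.3% with peaks within 1000 bp joined, 32.5% with R1000 reduced to its 6820 widest peaks and 16.9% with 50% of the peak covered. Allowing a peak of the other list within 500 bp gave 45.7%, and, chosen after seeing the data, within 1000 and 5000 bp 54.2% and 67.5%. The share of R4000 peaks that were new, reported as 63.3%, was 53.7%, 33.7%, 61.7%, 65.2% and 69.3% in the first 5 of these settings, and 38.9%, 32.3% and 23.8% with the 3 distances.

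Lost regions numbered 4211 with peaks of at least 100 bp, 393 with peaks of at least 500 bp, 4307 with peaks joined and 4304 with lists of equal number. New regions numbered 2189 with peaks of at least 100 bp and 117 with peaks of at least 500 bp, where 222 were kept. With lists of equal number the new regions were 4132 and the kept 2341. Only R1000 was cut there, from its narrowest peaks, so the smaller excess of lost regions follows in part from the cut.

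In the upstream window, lost, kept and new genes numbered 805, 859 and 494 with at least 50 bp covered, and 157, 137 and 36 with at least 500 bp. In the window on both sides they numbered 1217, 1570 and 898, and 285, 349 and 79. Of regions with at least 200 covered bp, parental, R100 and R500 peaks were found at 46.4%, 79.9% and 81.3% of the lost and 32.7%, 78.3% and 76.8% of the new. With lists of equal number, chosen after seeing the data, 16 ribosomal protein genes were new and 8 lost, and 4 developmental factor genes were new and 20 lost.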

Other observations

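Genes tied to the response to alkylating agents are given beside all genes, of which 6.92% were covered within 2 kb of the TSS in R1000 and 5.51% in R4000. Of 48 genes for aldehyde dehydrogenases, glutathione transferases and drug efflux pumps, 4 were covered in R1000 (8.33%) and 1 in R4000 (2.08%), with a summed coverage of 2900 and 1850 bp. The kept gene was Aldh1a2, a retinaldehyde dehydrogenase, at 1796, 2105, 2150, 1900 and 1600 bp from the parental line to R4000. Aldh5a1, succinic semialdehyde dehydrogenase, had 800, 850, 1900, 650 and 100 bp. Gsto1, an omega-class glutathione transferase, had 150 bp in R1000 and 0 bp in R4000. None of 30 genes for crosslink and break repair was covered within 2 kb of the TSS in either line, and upstream Ercc1 had 650 bp in R1000 and 250 bp in R4000. Of 22 genes of the p53 family and its targets, 2 were kept (Trp73, with 1000 and 450 bp, and Gadd45g, with 1050 and 700 bp) and Fas, a death receptor, was lost with 200 and 0 bp, so 13.6% were covered in R1000 and 9.09% in R4000. Of 20 Bcl2 family genes, 1 was kept and 3 were lost (20% and 5% covered). The Wilson interval of this lost share is wide and includes the 40.7% lost over all genes. Among the lost, Bak1 had 150 bp in R1000 and 0 bp in R4000, and Hrk had 150 and 50 bp. Both were thus only just at the limit of 150 bp in R1000. Within 1 kb of the TSS, 1 Bcl2 family gene was kept and 1 was lost.

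Of 13 genes for PRC2 subunits and H3K27 demethylases, none reached 150 bp within 2 kb of the TSS in either line, and Ezh2 had 50 bp in R1000 and 0 bp in R4000. Upstream of Kdm6b coverage was 300, 1027, 600, 500 and 250 bp from the parental line to R4000. Dnmt3b, a de novo DNA methyltransferase, was new, with 0, 550, 250, 0 and 300 bp. Ccnd2, cyclin D2, was kept with 1700, 3085, 2851, 2250 and 1700 bp.

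Potassium channel genes (94) had 16 members covered within 2 kb of the TSS in R1000 and 11 in R4000, with 10 kept, 6 lost and 1 new. The lost were 37.5% of those covered in R1000, beside 40.7% over all genes, and the ratio of summed coverage was 0.769, beside 0.718. Kcns1, a silent channel subunit, had 50, 500, 700, 500 and 0 bp from the parental line to R4000. Of 36 protocadherin genes, both that were covered in R1000, Pcdh1 (600 bp) and Pcdh9 (150 bp), were lost. All 3 Kruppel-like factor genes covered in R1000 were kept, among them Klf3 with 650 bp and, in R4000, 200 bp. Of 6 Gata genes, Gata2 was kept and Gata3, a T-cell factor, was lost with 150 and 0 bp. Of 67 histone cluster genes, only Hist3h2ba was covered in either line, with 550 and 700 bp.

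The share of R1000 regions that were lost varied between chromosomes, from 64.6% on chromosome 11 to 80.3% on chromosome 3 among the autosomes, and was 84.7% on chromosome X, where the lists hold 9 kept, 50 lost and 28 new regions. The number of new regions per lost region was highest on chromosome 8 (0.817) and chromosome 1 (0.808) and lowest on chromosome 18 (0.390) and chromosome 13 (0.395).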
